A study of Homo sapiens with 18 samples.

Results

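The ISG15 conjugation system joins ISG15, a small ubiquitin-like protein, to other proteins and takes it off again. Its 6 genes followed here are ISG15 itself, the activating enzyme (E1) UBA7, the conjugating enzyme (E2) UBE2L6, the ligase (E3) HERC5, its close relative HERC6 and the ISG15 protease USP18. They were chosen by name for their role, though with earlier results of these data known. All 6 were found among the 16472 genes of the table and among the 13280 genes tested. The cells were NIKS, a spontaneously immortalized and established human keratinocyte line, with wild-type SP100 (WT) or an SP100 knockout (KO), and their RNA was sequenced. SP100 is a component of PML nuclear bodies. Each genotype was untreated (0 h) or was kept for 12 or 48 h in human interferon alpha 2a, a type I interferon, at 25 ng/mL, which gave 6 groups of 3 biological replicates and 18 libraries. All groups were grown on lethally irradiated J2/3T3 mouse fibroblasts in a medium with fetal bovine serum, hydrocortisone, cholera toxin, epidermal growth factor, adenine, glutamine, insulin and antibiotics. All WT library names share the stem Vec2 and all KO library names the stem KO5, and what these stems stand for is not given in the labels. Effects of the knockout and of other differences between the WT and KO cells cannot be told apart. No untreated library of 12 or 48 h was analysed, and hours in interferon and hours in culture cannot be told apart either.

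In the known pathway UBA7 activates ISG15 with ATP and passes it to UBE2L6, and HERC5, the main ISG15 ligase of human cells, attaches it to proteins, many of them newly made at the ribosome. USP18 cleaves ISG15 from its targets and, apart from its protease activity, binds the receptor subunit IFNAR2 and dampens type I interferon signalling. HERC6 lies beside HERC5 on the chromosome and is the main ISG15 ligase of mice, while its role in human cells is less clear. Type I interferon acts through transcription factors that bind interferon-stimulated response elements (ISREs) in the promoters of its target genes, and the system is known as an antiviral defence in epithelial cells.

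The promoters of ISG15 and HERC5 are shown because these genes had the largest differences between the genotypes and because both hold letters of the ISRE core. The sequences are RefSeq's on GRCh38.p14, run from 250 bases before the start of transcription up to the nearest annotated exon, and are written 5′ to 3′ on the plus strand, which is the coding strand of both genes. The ISG15 promoter is chr1:1013247-1013422 and the HERC5 promoter is chr4:88456869-88457116. Capitals mark matches to the ISRE core, searched as GAAA, any 2 bases and GAAA or, on the other strand, as TTTC, any 2 bases and TTTC.
ISG15 promoter: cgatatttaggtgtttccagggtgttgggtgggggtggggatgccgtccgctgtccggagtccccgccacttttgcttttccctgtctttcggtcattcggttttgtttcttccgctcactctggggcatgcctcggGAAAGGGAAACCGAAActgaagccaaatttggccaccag
HERC5 promoter: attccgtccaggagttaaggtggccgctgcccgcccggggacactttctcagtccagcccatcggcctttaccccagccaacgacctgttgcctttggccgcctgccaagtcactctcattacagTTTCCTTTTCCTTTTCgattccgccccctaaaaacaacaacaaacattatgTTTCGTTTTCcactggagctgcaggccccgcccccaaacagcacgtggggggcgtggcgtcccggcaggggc
The ISG15 promoter held 2 overlapping matches, which begin 113 and 107 bases before the start. HERC5 held 3 matches, at 125, 119 and 74 bases before the start, all on the opposite strand, and the 2 farthest overlap. The windows of UBE2L6 (2 starts) and HERC6 held no match, and none of the windows of these 4 genes held the gamma-activated site TTCNNNGAA, which reads the same on both strands. Among 35116 promoter windows of 300 bases, 3.57% held the ISRE core and 7.66% the gamma-activated site. No promoter of UBA7 or USP18 is shown. A match is a run of letters and not a measured binding site.

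Levels are RPKM, which corrects reads for the length of the gene and the size of the library, so levels of different genes can be compared. Errors are SD with n = 3. Differences were tested with limma on log2(RPKM + 1), a scale that understates the change of genes with low levels, with p-values adjusted by Benjamini-Hochberg over the 13280 genes and a threshold of 0.05. SP100 itself, the targeted gene, was lower in KO than in WT at 0, 12 and 48 h, by -0.94, -0.83 and -1.08 on the log2 scale (adjusted p 4.92e-08, 3.61e-07 and 1.47e-08), so its RNA was reduced and not absent. Relative depth, read from the smallest values, ranged 1.49-fold over the libraries, and read totals were not analysed. All 7 listed markers of basal keratinocytes were present, with a summed level of 13439 to 16421 RPKM. In KO against WT, DSG3 was called higher at 0, 12 and 48 h, and COL17A1 was called lower at 0 and 48 h. Over all genes 4.89%, 3.62% and 4.19% were called at these times. Of 7 listed markers of differentiated keratinocytes 6 were analysed, and their summed level without interferon was 149 to 168 RPKM for WT and 126 to 146 RPKM for KO. At 12 h it was 182 to 191 RPKM for WT and 149 to 196 RPKM for KO. Of these, IVL, SPRR1A and SPRR1B were called higher and KRT10 lower at 12 h in both genotypes (in WT the KRT10 call was lost with scaling by median of ratios), and SPRR1A was called lower in untreated KO than in WT (-0.85, adjusted p 0.00357). KRTDAP, another marker of differentiated keratinocytes, was called higher in KO than in WT at 48 h. The part of these basal and differentiated markers in the differences of the 6 genes was not tested. In bulk RNA, fewer cells that express a gene and less RNA per cell cannot be told apart.

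All 6 genes of the system rose in interferon, in both genotypes and at both times. In WT at 12 h the fold of the mean levels was 64.6 for ISG15, 58.8 for USP18, 22.8 for HERC6, 16.2 for UBE2L6, 10.2 for HERC5 and 7.06 for UBA7. Of all genes tested, 15.1% were called higher in that comparison. The share was 6.52% in WT at 48 h. For KO it was 16% at 12 h and 5.9% at 48 h. The median log2 change of the 6 genes was 4.07 in WT at 12 h, against -0.09 over all genes. The mean levels were highest at 12 h: by 48 h all 6 had fallen in WT and 5 of 6 in KO, though each stayed far above its untreated level. Of 7 listed immune cell markers 2 were analysed, CD14 and CD68. Their summed level was 24.1 to 25.3 RPKM in WT without interferon and 53.1 to 58.9 RPKM at 12 h. The 2 went opposite ways: at 12 h CD68 was called higher (1.39 in WT) and CD14 lower (-0.84 in WT) in both genotypes. CD68 was also called lower in untreated KO than in untreated WT (-0.35). The part of these 2 markers in the changes of the 6 genes was not tested.

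ISG15 (ENSG00000187608), the modifier, was the most abundant RNA of the system in every interferon-treated group. In WT cells it was at 18.49, 15.71 and 13.59 RPKM untreated, at 1118.12, 949.85 and 1019.38 RPKM at 12 h and at 654.86, 649.66 and 715.1 RPKM at 48 h. In KO cells it was at 4.46, 5.68 and 6.77 RPKM untreated, at 775.52, 820.53 and 825.75 RPKM at 12 h and at 552.05, 678.18 and 563.56 RPKM at 48 h. The KO libraries lay below all WT libraries at 0 and 12 h, and the genotypes overlapped at 48 h. The log2 change at 12 h was 5.93 in WT (SE 0.118, limma, adjusted p 3.99e-16) and 6.94 in KO (SE 0.118, adjusted p 4.18e-17). By size of rise at 12 h, ISG15 stood 13th of 13280 genes in WT and 7th in KO. The mean of 1029 ± 84.6 RPKM in WT at 12 h placed it 115th by level among the 13280 genes tested.

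UBA7 (ENSG00000182179), the E1, had the lowest level of the system in every treated group and the smallest rise. WT libraries held 1.39, 1.78 and 1.74 RPKM untreated, 13.38, 9.49 and 11.8 RPKM at 12 h and 9.49, 7.93 and 7.87 RPKM at 48 h. KO libraries held 1.14, 1.09 and 1.33 RPKM untreated, 9.06, 9.89 and 7.34 RPKM at 12 h and 8.0, 8.16 and 7.87 RPKM at 48 h. Treated libraries were all above untreated ones, while the 12 h and 48 h groups overlapped in both genotypes. The log2 change at 12 h was 2.24 in WT (SE 0.117, limma, adjusted p 3.06e-10) and 2.15 in KO (SE 0.117, adjusted p 5.11e-10), which ranked 86th and 93rd.

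UBE2L6 (ENSG00000156587), the E2, was the second most abundant RNA of the system in treated cells. The WT values were 14.52, 14.29 and 14.05 RPKM untreated, 226.31, 234.15 and 231.79 RPKM at 12 h and 173.31, 179.71 and 164.77 RPKM at 48 h. The KO values were 13.08, 12.52 and 10.79 RPKM untreated, 199.5, 205.19 and 207.68 RPKM at 12 h and 155.09, 152.28 and 142.89 RPKM at 48 h. At each of the 3 times every KO library lay below every WT library, by a small margin. The log2 change at 12 h was 3.92 in WT (SE 0.0542, limma, adjusted p 3.35e-18) and 3.97 in KO (SE 0.0542, adjusted p 2.45e-18).

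HERC5 (ENSG00000138646), the E3, was low in untreated cells and lowest of all in untreated KO cells. In the WT libraries it was at 2.37, 1.98 and 2.23 RPKM untreated, at 22.97, 22.84 and 21.41 RPKM at 12 h and at 14.27, 16.81 and 16.0 RPKM at 48 h. In the KO libraries it was at 0.57, 0.58 and 0.4 RPKM untreated, at 17.75, 14.76 and 17.7 RPKM at 12 h and at 10.84, 9.9 and 10.71 RPKM at 48 h. The genotypes did not overlap at any time, and KO was the lower each time. The log2 change at 12 h was 2.87 in WT (SE 0.0828, limma, adjusted p 6.21e-14) and 3.55 in KO (SE 0.0828, adjusted p 3.38e-15). The ratio of mean levels was 10.2 in WT and 32.4 in KO, but the untreated KO level is under 1 RPKM, and a pseudocount of 0.1 in place of 1 gave a log2 change of 4.78 in KO.

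HERC6 (ENSG00000138642), the neighbour and relative of HERC5, reached a higher level than HERC5 in all 6 groups. WT libraries gave 3.47, 3.02 and 4.9 RPKM untreated, 85.52, 88.07 and 86.36 RPKM at 12 h and 46.97, 42.16 and 44.69 RPKM at 48 h. KO libraries gave 4.04, 4.37 and 2.69 RPKM untreated, 87.96, 86.52 and 90.43 RPKM at 12 h and 42.13, 39.06 and 38.36 RPKM at 48 h. The genotypes overlapped at 0 and 12 h, and at 48 h the KO libraries lay just below the WT ones. The log2 change at 12 h was 4.21 in WT (SE 0.127, limma, adjusted p 1.12e-13) and 4.27 in KO (SE 0.127, adjusted p 9.5e-14).

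USP18 (ENSG00000184979), the protease, had the lowest level of the system in untreated WT cells and the second largest rise at 12 h. Its WT values were 1.28, 1.36 and 1.26 RPKM untreated, 73.95, 79.47 and 75.85 RPKM at 12 h and 38.6, 36.61 and 38.65 RPKM at 48 h. Its KO values were 2.03, 1.82 and 1.75 RPKM untreated, 80.58, 78.75 and 84.1 RPKM at 12 h and 36.05, 35.68 and 36.91 RPKM at 48 h. Untreated KO libraries all lay above untreated WT libraries, and the genotypes overlapped at 12 and 48 h. The log2 change at 12 h was 5.07 in WT (SE 0.0473, limma, adjusted p 1.56e-20) and 4.84 in KO (SE 0.0473, adjusted p 2.51e-20).

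**Figure D1:**
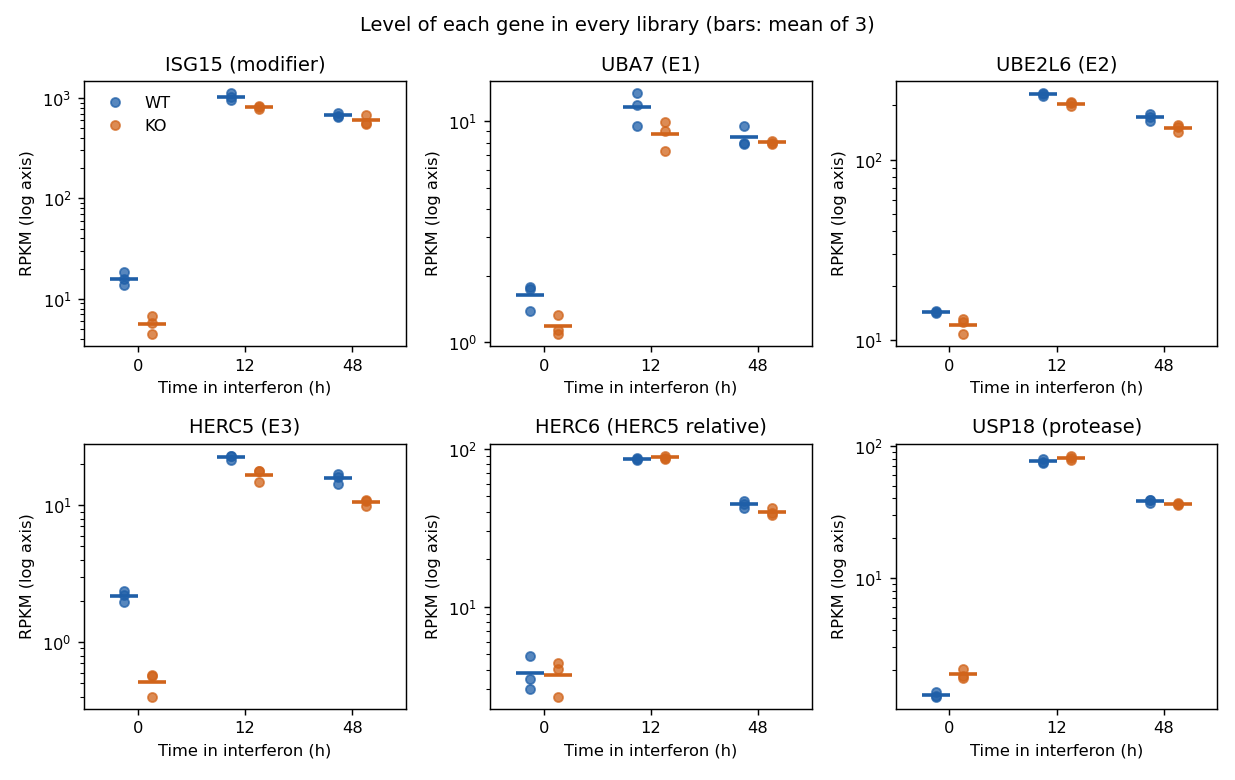
RPKM of the 6 genes of the ISG15 conjugation system (log axis, a scale of its own in each panel) against time in interferon in hours. Points are libraries, blue for WT and orange for KO, and bars are means of 3; the means are highest at 12 h for all 6 genes, though UBA7 in KO did not differ between 12 and 48 h beyond its spread, and KO lies below WT at 0 h for ISG15 (5.64 against 15.9 RPKM) and HERC5 (0.517 against 2.19 RPKM).

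USP18 has a near copy, USP41, and 23% of the stretches of 50 bases of the USP18 transcript are also in USP41 in GENCODE release 29, so reads may have been split between them. HERC6 shared 0.804% of its stretches with HERC3, and the other 4 genes shared none. USP41 moved unevenly between replicates: it was listed at 0.06, 0 and 1.33 RPKM in untreated WT and at 10.94, 15.6 and 4.97 RPKM in KO at 12 h. Summed with USP41, untreated USP18 was at 1.34, 1.36 and 2.59 RPKM in WT and at 2.03, 2.48 and 1.75 RPKM in KO, and the genotypes then overlapped. The rise in interferon does not rest on this, since the summed level was 82.5 ± 7.33 RPKM in WT and 91.6 ± 2.64 RPKM in KO at 12 h.

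The order of the 6 levels was the same in all 4 treated groups: ISG15, UBE2L6, HERC6, USP18, HERC5 and UBA7, with no overlap between neighbours in that order. ISG15 made up 70.6% of the summed RPKM of the 6 genes in WT at 12 h and was 89-fold the level of UBA7. Untreated cells were less spread, with a 12.3-fold range between highest and lowest in WT and a 23.5-fold range in KO. Among untreated WT libraries, ISG15 and UBE2L6 (14.3 ± 0.235 RPKM) overlapped at the top. In untreated KO, UBE2L6 at 12.1 ± 1.19 RPKM was above ISG15 at 5.64 ± 1.16 RPKM with no overlap, and the share of ISG15 in the summed level was 22.5%, against 40.7% in untreated WT.

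From 12 to 48 h the genes came down unequally, with HERC6 and USP18 losing more than the others. In WT all 6 fell, where 11.3% of all genes were called lower, and in KO 5 of 6 fell, where 14% were called lower. USP18 at 48 h was at 49.7% of its 12 h level in WT and 44.6% in KO, and HERC6 was at 51.5% and 45.1%. For ISG15 these shares were 65.4% and 74.1%, for UBE2L6 74.8% and 73.5%, and for HERC5 70.04% and 62.6%. The log2 changes in WT ranged from -0.99 for USP18 (SE 0.0473, limma, adjusted p 7.14e-10) to -0.41 for UBA7 (SE 0.117, adjusted p 0.0132). The call of UBA7 in WT was lost without WT 12 h replicate 1 (-0.30, adjusted p 0.0727), WT 48 h replicate 2 (-0.37, adjusted p 0.0517) or WT 48 h replicate 3 (-0.36, adjusted p 0.0543), and in a fit of the 6 compared libraries alone (adjusted p 0.0529). In KO, UBA7 was at 91.4% of its 12 h level, a log2 difference of -0.11 with a 95% interval of -0.36 to 0.14. Whether the genotypes differed in this fall was tested as an interaction: 0 of 6 genes and 0 of 13280 passed in limma, with 904 genes at an unadjusted p under 0.05. Over all genes 1 passed in a fit of the treated libraries alone and 1 without a trend in the variances. USP18 had the smallest unadjusted p of the 6 (-0.15, unadjusted p 0.0387, adjusted p 0.696).

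**Figure D2:**
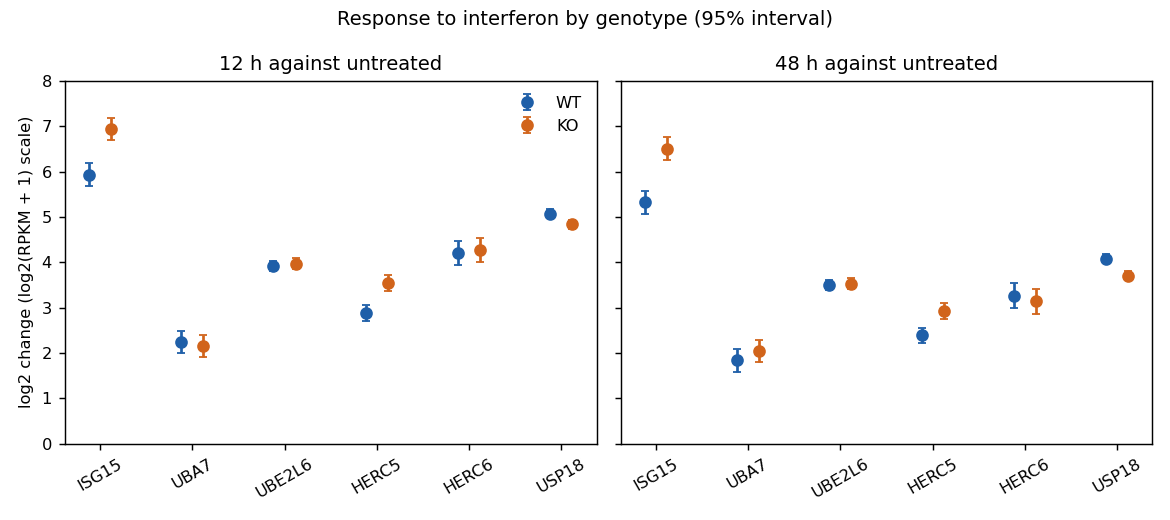
The log2 change of each gene from untreated to 12 h (left) and 48 h (right), on the log2(RPKM + 1) scale, for WT in blue and KO in orange, with 95% intervals from limma. On this scale the order of the changes is alike in both genotypes, and ISG15 has the largest change, 5.93 in WT and 6.94 in KO at 12 h. By the fold of mean levels the order differs for HERC5, which is under 1 RPKM in untreated KO. In KO at 12 h this fold is 32.4 for HERC5, above 23.9 for HERC6 and 16.8 for UBE2L6, while in WT HERC5 (10.2) is below both.

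KO and WT were then compared at each time, which asks how the SP100 knockout cells differ from the wild-type cells in this system. In untreated cells 4 of 6 genes were called, where 4.89% of all genes were called in either direction. ISG15 was at 35.4% of the WT mean (log2 change -1.36, SE 0.118, limma, adjusted p 2.16e-06) and HERC5 at 23.6% (-1.07, SE 0.0828, adjusted p 5.95e-07). On this scale they ranked 27th and 45th lowest of the genes tested. UBE2L6 was at 84.9% (-0.22, adjusted p 0.0251), and this call was lost without WT 0 h replicate 1 (-0.21, adjusted p 0.0812), replicate 2 (-0.22, adjusted p 0.0789) or replicate 3 (-0.23, adjusted p 0.0575), without KO 0 h replicate 3 (-0.15, adjusted p 0.0746) and in a fit of the 6 untreated libraries alone (adjusted p 0.205). USP18 moved the other way and was higher in KO, at 144% of WT (0.32, SE 0.0473, adjusted p 0.000629). Summed with USP41 the difference was 0.18 (adjusted p 0.563), and in the fit of the 6 libraries alone its adjusted p was 0.157. KO lay below WT without overlap for 4 of 6 genes, where 8.85% of all genes did so: ISG15, HERC5, UBE2L6 and UBA7. UBA7 did not pass the test (-0.27, 95% interval -0.52 to -0.02, adjusted p 0.236), nor did HERC6 (-0.03, interval -0.30 to 0.24, adjusted p 0.943).

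At 12 h 1 of 6 genes was called, HERC5, where 3.62% of all genes were. HERC5 was at 74.7% of WT (-0.40, SE 0.0828, limma, adjusted p 0.0103). This call was lost without KO 12 h replicate 2 (-0.32, adjusted p 0.0531), with a pseudocount of 0.1 (-0.42, adjusted p 0.0525) and in a fit of the 6 libraries alone (adjusted p 0.0736). ISG15 was at 78.4% of WT, with no overlap between the groups, and did not pass (-0.35, interval -0.60 to -0.10, adjusted p 0.133). UBA7 (-0.36, adjusted p 0.116) and UBE2L6 (-0.18, adjusted p 0.0933) had values on the same side. In the fit of the 6 libraries alone ISG15 and UBE2L6 passed (adjusted p 0.0498 each). Without WT 12 h replicate 2, UBA7 passed (-0.48, adjusted p 0.0319). KO lay below WT without overlap for 3 of 6 genes, ISG15, UBE2L6 and HERC5, where 9.77% of all genes did so. HERC6 and USP18 were at 102% and 106% of WT, with 95% intervals of -0.24 to 0.30 and -0.02 to 0.19.

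At 48 h 2 of 6 genes were called, HERC5 and UBE2L6, where 4.19% of all genes were. HERC5 was at 66.8% of WT (-0.54, SE 0.0828, limma, adjusted p 0.000892). HERC5 was thus the 1 gene of the 6 called lower in KO at all 3 times, though its call at 12 h was lost in 3 of 14 alternatives. UBE2L6 was at 87.0% (-0.20, adjusted p 0.0491), and 9 of 14 alternatives lost the call, among them the omission of WT 48 h replicate 1 or 2 or of any KO 48 h library, where its adjusted p was 0.0688 to 0.195. ISG15 (-0.18, interval -0.43 to 0.08), UBA7 (-0.06, -0.31 to 0.19), HERC6 (-0.16, -0.43 to 0.11) and USP18 (-0.07, -0.17 to 0.03) did not pass. KO lay below WT without overlap for 3 of 6 genes, HERC5, UBE2L6 and HERC6, where 9.29% of all genes did so.

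VIM, which encodes vimentin and which cultured keratinocytes can express too, also differed between the genotypes, and was called lower in KO at all 3 times (-0.59, -0.46 and -0.57). It is 1 of 9 listed fibroblast markers, of which 3 had levels and 2, VIM and COL1A1, were tested. The summed level of the 3 was 378 to 390 RPKM in untreated WT and 255 to 260 RPKM in untreated KO, 312 to 318 against 224 to 239 RPKM at 12 h and 275 to 299 against 189 to 198 RPKM at 48 h. Nearly all of it was VIM, and COL1A1, at 1.67 RPKM in untreated WT, was not called between the genotypes at any time. The part of VIM in the differences of ISG15 and HERC5 was not tested.

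**Figure D3:**
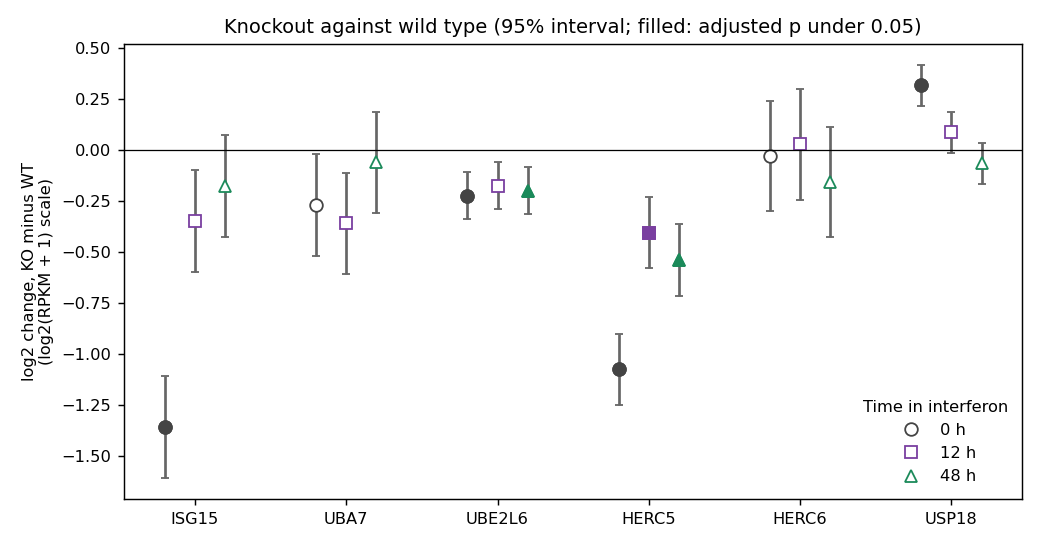
KO minus WT on the log2(RPKM + 1) scale at 0 h (circles), 12 h (squares) and 48 h (triangles) of interferon for each gene, with 95% intervals; filled symbols passed an adjusted p of 0.05 in limma. ISG15 and HERC5 stand lowest at 0 h, at -1.36 and -1.07, and HERC5 stays filled at all 3 times, though its call at 12 h was lost in 3 of 14 alternatives.

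ISG15 began lower in KO and lay closer to WT in interferon, so its log2 change was larger in KO. This difference between responses was tested as an interaction of genotype and interferon, and both interactions share the untreated libraries. At 12 h 2 of 6 genes were called, where 0.0753% of all genes were: ISG15 (1.01, SE 0.167, limma, adjusted p 0.0361) and HERC5 (0.67, SE 0.117, adjusted p 0.0458). At 48 h 2 of 6 were called, where 0.0828% were: ISG15 (1.18, SE 0.167, adjusted p 0.00579) and, with a smaller rise in KO, USP18 (-0.38, SE 0.0669, adjusted p 0.0426). HERC5 at 48 h (0.54, SE 0.117, adjusted p 0.21) and USP18 at 12 h (-0.23, SE 0.0669, adjusted p 0.571) did not pass. The ISG15 call at 48 h held in 19 of 20 alternatives and was lost in the fit of the comparison's libraries alone (adjusted p 0.0921). The other 3 calls were lost in 12, 15 and 17 of 20 alternatives, and in each the direction stayed. With USP41 added, the USP18 difference at 48 h was -0.25 (adjusted p 0.885). UBA7, UBE2L6 and HERC6 had interactions between -0.13 and 0.21, and none passed. Expressed as a gain in RPKM, ISG15 rose by less in KO, by 802 RPKM at 12 h against 1013 RPKM in WT, so the larger change in KO is one of ratio.

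Ratios within a library compare pairs of the system without any scaling between libraries. ISG15 to USP18, the modifier against its protease, was 12.3 ± 1.93 in WT without interferon and 3.06 ± 0.837 in KO without it. The ratio at 12 h was 13.5 ± 1.58 in WT and 9.95 ± 0.415 in KO, with no overlap, and at 48 h it was 17.7 ± 0.768 and 16.5 ± 2.15, with overlap. These ratios take USP18 without USP41, which may share its reads. In untreated WT replicate 3 USP18 was at 1.26 RPKM and USP41 at 1.33 RPKM, so the untreated ratio depends on this choice. With USP41 added to USP18 the mean log2 ratio was still lower in KO at all 3 times. HERC5 to HERC6, the neighbouring ligase genes, was 0.598 ± 0.124 in untreated WT and 0.141 ± 0.00799 in untreated KO. For this pair KO lay below WT in all libraries at every time, at 0.189 ± 0.0165 against 0.259 ± 0.0104 at 12 h and at 0.263 ± 0.0139 against 0.354 ± 0.0476 at 48 h. UBE2L6 to UBA7, the E2 against the E1, overlapped between genotypes at all 3 times. Its mean in WT was 8.85 ± 1.38 untreated, 20.4 ± 3.94 at 12 h and 20.6 ± 2.22 at 48 h. A two-sided exact permutation test of 3 against 3 libraries cannot go below a p of 0.1, which the 5 comparisons without overlap reached (adjusted p 0.18 over 9 tests), so none of these differences could pass the threshold by this test.

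**Figure D4:**
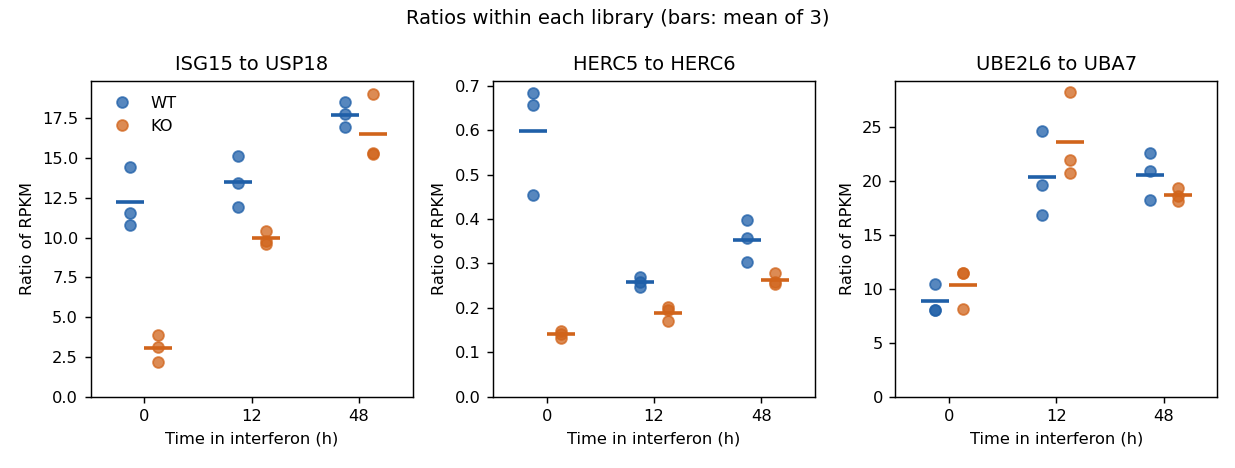
Ratio of RPKM of 2 genes within each library against time in interferon in hours, WT in blue and KO in orange, with bars for the mean of 3. USP18 is taken without USP41. For ISG15 to USP18 the untreated KO libraries sit between 2.20 and 3.87 and the untreated WT libraries between 10.8 and 14.4, and for HERC5 to HERC6 KO is below WT at every time.

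Among related enzymes and ubiquitin-like systems, log2 changes at 12 h were below those of all 6 genes in WT, where the highest were 1.83 for USP41, which was not called, and 1.68 for TRIM25. In KO, USP41 rose by 3.16 (limma, adjusted p 0.01), more than UBA7 (2.15). Most other changes were small, and scaling matters for these: median-of-ratios scaling moved the median of all genes at 12 h from -0.09 to 0.00 in both genotypes, so counts at 12 h are also given under that scaling where they differ. Among 6 other enzymes reported to act on ISG15, 3 rose and 2 fell at 12 h in WT (3 and 0 with that scaling). In KO at 12 h the counts were 3 and 1 (4 and 1 with that scaling). Over all genes 15.1% were called higher and 29.8% lower in WT, and 16% and 32.8% in KO. The median log2 change of this list was 0.10 in WT. TRIM25, an interferon-induced ubiquitin ligase that has also been reported as an ISG15 ligase, rose most, from 35.24, 34.21 and 35.90 RPKM untreated to 110.26, 122.04 and 112.77 RPKM at 12 h in WT (log2 change 1.68, limma, adjusted p 8.93e-13). It was the 1 gene of this list called at 48 h, in both genotypes (0.84 in WT and 0.83 in KO). The deubiquitinases USP14 and USP16 rose by 0.28 and 0.19 at 12 h in WT, where ARIH1 and USP13 had -0.19 and -0.22.

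Among 8 paralogs of the enzymes, 2 rose at 12 h in WT, where 15.1% of all genes were called higher: UBA6 (0.33), an E1 for ubiquitin, and UBE2L3 (0.22), the close relative of UBE2L6 that serves ubiquitin. UBE2L3 was at 84.9 ± 5.17 RPKM untreated and 99.2 ± 1.72 RPKM at 12 h, so it exceeded UBE2L6 in untreated cells and was below it in interferon. In KO at 12 h 2 rose, UBE2L3 and USP41, and HERC4 had -0.23 and was called lower, against 3 and 0 with median-of-ratios scaling. Of all genes in KO at 12 h, 16% were called higher and 32.8% lower. The median log2 change of the paralogs was 0.04 in WT. HERC3, another neighbour and relative of HERC5 and HERC6, was called at 48 h in WT (0.35, limma, adjusted p 0.0204).

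The SUMO, NEDD8, UFM1, ATG12 and URM1 systems, with 27 genes tested, had 4 genes called higher and 4 called lower at 12 h in WT (6 and 3 with median-of-ratios scaling), where 15.1% of all genes were called higher and 29.8% lower. The KO counts were 3 and 8 (4 and 5), where 16% and 32.8% of all genes were called. Their log2 changes in WT at 12 h ran from -0.36 to 0.29, with a median of -0.07. UFM1, a ubiquitin-like modifier, was called higher at 12 and 48 h in both genotypes, with 0.26 and 0.48 in WT. Of 4 ubiquitin genes, RPS27A, a ubiquitin and ribosomal protein fusion, was called lower in both genotypes at both times (-0.28 in WT at 12 h, and -0.18 with median-of-ratios scaling). The counts of these 4 genes at 12 h were 1 higher and 1 lower in WT (2 and 1 with that scaling) and 0 and 1 in KO (1 and 1). UBB was called higher in WT at 12 h (0.25) and lower in KO than in WT at that time (-0.24, limma, adjusted p 0.0375).

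**Figure D5:**
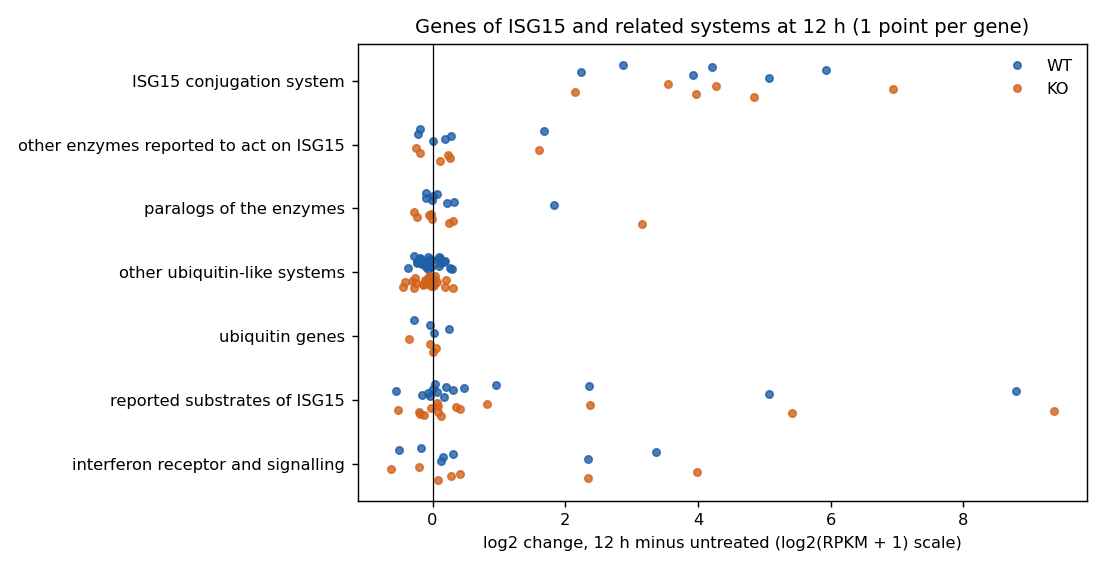
Log2 change from untreated to 12 h on the log2(RPKM + 1) scale, 1 point per gene, for the 6 genes and for 6 related lists, WT in blue and KO in orange. The 6 genes lie between 2.15 and 6.94, while the genes of the other ubiquitin-like systems lie between -0.44 and 0.30.

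Genes of 15 proteins reported as ISG15 substrates were counted as well: at 12 h in WT 7 rose and 1 fell, where 15.1% of all genes were called higher and 29.8% lower. The KO counts were 7 and 2 (9 and 1 with median-of-ratios scaling), against 16% and 32.8% of all genes. The median log2 change was 0.17 in WT, and the large changes were those of interferon-induced antiviral genes. MX1, a GTPase that blocks many viruses, went from 0.317 ± 0.0950 to 580 ± 7.18 RPKM in WT at 12 h. RIGI, a sensor of viral RNA, went from 4.36 ± 0.419 to 178 ± 5.65 RPKM, and EIF2AK2, the kinase PKR, from 19.8 ± 0.432 to 105 ± 4.04 RPKM. In untreated cells RIGI was lower in KO (-0.42, limma, adjusted p 0.000198), and it was called lower in KO at 48 h as well. MX1 went the other way in treated cells and was higher in KO at 12 h (0.48, adjusted p 7.16e-06) and 48 h (0.44, adjusted p 1.73e-05), where ISG15 and HERC5 had values below WT. The interaction of genotype and interferon was also called for MX1, at 12 h (0.58) and at 48 h (0.54). Over all genes 0.0753% and 0.0828% were called in these interactions.

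Upstream of the system, 7 genes of interferon signalling were counted, of which JAK1 is also in the substrate list. At 12 h 3 were called higher and 1 lower in WT (4 and 1 with median-of-ratios scaling), and 3 and 2 in KO (3 and 1). Of all genes, 15.1% were called higher and 29.8% lower in WT, and 16% and 32.8% in KO. The same 3 rose in both genotypes: STAT2 (2.34 in WT), IRF9 (3.36) and JAK1 (0.31). IFNAR2, the receptor subunit to which USP18 binds, was called lower at 12 h in WT (-0.50, limma, adjusted p 0.000313) and in KO (-0.63, adjusted p 3.12e-05). From 12 to 48 h IFNAR2 was called higher in both genotypes. IRF9 was the 1 gene of this list called between untreated genotypes: it was at 5.81, 6.31 and 6.24 RPKM in WT and at 4.81, 4.38 and 2.84 RPKM in KO (-0.53, adjusted p 0.0109).

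Over the 18 libraries the 6 genes ran closely together, with Pearson r of log2(RPKM + 1) between 0.955 for HERC5 and USP18 and 0.995 for HERC6 and USP18. These are descriptions, since all points share the same 6 groups and 4 of these are treated. Among all tested genes, ISG15 was most like IFIT3 (0.997), IFI44 (0.996) and TYMP (0.995). UBA7 was most like ISG15 and the immunoproteasome subunit PSMB9 (both 0.988), followed by UBE2L6 (0.987). UBE2L6 was most like PARP9, MX2 and OAS3 (each 0.998), and HERC5 was most like OASL (0.990), DHX58 (0.988) and IFIT1 (0.987). HERC6 was most like LAP3 (0.998), ADAR (0.997) and SP110 (0.996), and USP18 was most like IFIH1, TRIM14 and LAP3 (each 0.998).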

How the data were processed

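The labels' protocols give a stranded mRNA library kit and total RNA as its input. The authors deposited 1 table of RPKM values with 16472 genes and 18 libraries, rounded to 2 decimals. The submitters' processing notes name cutadapt, STAR 2.6.1, RSEM 1.3.0, limma 3.50.3 and hg19, without their roles. How reads shared between copies of a gene were counted, and the strand setting, are not given in the sources used here. The 6 genes, the gene lists and the tests were chosen with earlier results of these data known. 1 gene of the lists is not reported here.

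Because RPKM is normalized, count models were not used, and the analysis ran on log2(RPKM + 1). Genes with at least 1 RPKM in at least 3 libraries were tested, 13280 in all. A cell-means model over all 18 libraries was fitted in limma 3.58.1 under R 4.3.3, with a mean trend in the variances and Benjamini-Hochberg adjustment over all genes in each of 12 comparisons, and was tested on simulated data. Relative depth came from 636 genes with values of 1 read, of which 89.1% lay within 5% of the fitted depth, and ranged from 0.846 to 1.26. No counting interval was computed, since read totals are unknown. Within-library ratios were compared by two-sided exact permutation. Named genes were the 6, SP100, members of the lists where called or where a result turns on them, and for each of the 6 the 3 genes with the highest Pearson r. Alternatives were a pseudocount of 0.1, no filter, genes with a mean RPKM of 5 or more, scaling by median of ratios, a fit on the compared libraries alone, variances without a trend, a replicate block, the omission of each library and, chosen after seeing the data, USP18 and USP41 summed. The promoter windows are from RefSeq (GRCh38.p14), and those of 4 of the 6 genes were used here.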

Additional observations from a re-analysis of the deposited data

Results flagged for a closer look

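The response to interferon differed between the genotypes, by the interaction test in limma, in 4 results. For ISG15 the log2 change was larger in KO by 1.01 at 12 h (adjusted p 0.0361, and 0.00627 to 0.132 over 20 alternatives) and by 1.18 at 48 h (adjusted p 0.00579, and 0.00162 to 0.0921). For HERC5 it was larger in KO by 0.67 at 12 h (adjusted p 0.0458, and 0.000295 to 0.178). For USP18 it was smaller in KO at 48 h, by -0.38 (adjusted p 0.0426, and 0.00532 to 0.885). The 4 results rest on the same untreated libraries, in which ISG15 and HERC5 were lower and USP18 higher in KO. Leaving out single libraries ended these calls as follows. The ISG15 call at 12 h was lost without WT 0 h replicate 1 or 2, WT 12 h replicate 2 or 3, KO 0 h replicate 1 or 2, or any KO 12 h library, with differences of 0.88 to 1.04. The HERC5 call was lost when any of its 12 libraries other than KO 12 h replicate 2 was left out, with differences of 0.61 to 0.72. The USP18 call was lost when any of its 12 libraries other than KO 0 h replicate 3 was left out, with differences of -0.41 to -0.34. The ISG15 call at 48 h was not lost without any single library.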

How the results depend on the processing

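The direction and the calls of the 6 genes in interferon against untreated were the same in all 14 alternatives of each of the 4 comparisons. Of the 6 genes, the number called in KO against WT at 0 h went from 4 to 2 in the fit of the compared libraries alone. At 12 h it went from 1 to 0 with a pseudocount of 0.1 and to 2 in that fit, and ranged from 0 to 2 with single libraries left out. At 48 h it went from 2 to 1 with a pseudocount of 0.1, no filter, the fit alone or no trend, and from 1 to 2 with libraries left out. For the interaction at 12 h the number went from 2 to 1 with no filter, median-of-ratios scaling or no trend, to 0 in the fit alone, and to 0 or 1 with any library left out. At 48 h it went from 2 to 1 with no filter, median-of-ratios scaling, no trend or USP18 and USP41 summed, to 0 in the fit alone, and to 1 or 2 with libraries left out. HERC5 in KO against WT at 0 h went from -1.07 to -1.91 with a pseudocount of 0.1, and its interactions to 1.48 at 12 h and 1.33 at 48 h (adjusted p 0.00122, a call).

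No pairing by replicate number was seen over all genes. Deviations of same-numbered libraries correlated over 0.1 in 2 of 45 pairs (median r -0.0126), against 2 of 90 differently numbered pairs (median r 0.0084). Of 18 libraries, 2 correlated best with their own number. A pairing limited to few genes would not show in these values. With the replicate number as a block the called genes went from 2 to 0 in the interaction at 12 h and from 2 to 1 at 48 h, and this block changed no other count of the 6.

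Differences near 0 changed sign when a library was left out. The ranges over single libraries were -0.147 to 0.136 for HERC6 at 0 h, where the omission of WT 0 h replicate 3 (0.130) or KO 0 h replicate 3 turned the sign, and up to 0.0176 for UBA7 at 48 h from -0.103. In the interaction at 12 h they were -0.215 to 0.0177 for UBA7 (0.0375 with a pseudocount of 0.1), -0.110 to 0.173 for HERC6 and -0.0283 to 0.0997 for UBE2L6. UBE2L6 ranged from -0.0525 to 0.0755 in the interaction at 48 h and from -0.0570 to 0.0106 between times. The UBE2L6 to UBA7 log2 ratio at 0 h ranged from -0.0223 without KO 0 h replicate 1 to 0.167 without replicate 3. Over all genes, the fit on the compared libraries alone called 306, 213 and 250 genes in KO against WT at 0, 12 and 48 h in place of 650, 481 and 556, and 6 and 3 in the interactions in place of 10 and 11. In KO at 48 h against untreated it called 945 in place of 1770. Without single libraries the lowest counts were 381, 304 and 375 in KO against WT, 6 and 7 in the interactions, and 1160 in KO at 48 h. The cause was not tested. The lack of read totals limits what can be said of genes under 1 RPKM, such as HERC5 in untreated KO.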

Other observations

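Genes that lie beside the 6 on the chromosome were counted from a fixed list. Of 13 tested, 6 were higher and none lower in interferon at 12 h in WT (7 and none with median-of-ratios scaling), where 15.1% of all genes were called higher. In KO 6 were higher and 1 lower, where 16% of all genes were called higher and 32.8% lower. HES4, a transcriptional repressor next to ISG15, was called higher at 12 and 48 h in both genotypes. It was at 0.33, 0.74 and 0.32 RPKM in untreated WT and at 3.08, 3.16 and 2.53 RPKM at 12 h (log2 change 1.43, limma, adjusted p 3.53e-06). PPM1K, a mitochondrial phosphatase gene near HERC5 and HERC6, was also called at both times in both genotypes, and was at 1.05, 0.90 and 0.97 RPKM in untreated WT and at 2.43, 2.91 and 2.95 RPKM at 12 h (0.93, adjusted p 7.18e-05). SERPING1, the complement C1 inhibitor gene near UBE2L6, was called in the same 4 comparisons and went from 0.38, 0.07 and 0.12 RPKM to 1.20, 1.59 and 1.72 RPKM (1.08, adjusted p 2.8e-05). In KO against WT 0 of the 13 were called by limma at any time, and 1, 2 and 1 had an unadjusted p under 0.05 at 0, 12 and 48 h. Over all genes 4.89%, 3.62% and 4.19% were called at these times, and 18.1%, 17% and 16.4% had an unadjusted p under 0.05. ITGB2, the beta chain of the LFA-1 integrin that has been reported as a receptor of extracellular ISG15, was called lower at 12 h in WT (-0.42, adjusted p 0.00673) and KO (-0.57, adjusted p 0.000546). Of the 2 chains of this integrin in the list, ITGB2 alone was analysed, and the alpha chain ITGAL was not.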
